A study of Mus musculus with 16 samples.

Results

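The expression of MHC class II genes was followed in adipose tissue macrophages (ATM): the 3 classical chain genes H2-Aa, H2-Ab1 and H2-Eb1, the invariant chain gene Cd74, the peptide-loading genes H2-DMa, H2-DMb1 and H2-DMb2, their modulators H2-Oa and H2-Ob, and the transactivator gene Ciita. These 10 genes were selected by symbol from a table of 37310 gene identifiers, as a list of class II chains, loading chaperones and their transactivator that was written after some genotype differences on LT-HFD were known. The table held 11 rows with these names, because 2 were named Ciita, and the second of them (ENSMUSG00000075404, 0 to 17 counts per library) was absent from the annotation and was kept apart from the first (ENSMUSG00000022504). F4/80+ cells were taken from epididymal fat pads of male mice, aged 7 to 10 weeks when the experiment started, after 4 weeks (short-term, ST-HFD) or 12 weeks (long-term, LT-HFD) of a high-fat diet with 60% fat. The groups were 4 wild-type (WT) and 4 IRF5-KO libraries at each duration, 16 in all. IRF5-KO mice carried a floxed Irf5 gene and the Cre recombinase inserted at Lyz2 (LysM-Cre), which acts in macrophages, monocytes and neutrophils, and WT mice were littermates. All groups received the diet, and libraries from chow-fed mice were not analysed here.

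MHC class II molecules display peptides from ingested material to CD4+ T cells. An alpha and a beta chain assemble in the endoplasmic reticulum with the invariant chain, which blocks the groove and directs the complex to endosomes, where H2-DM exchanges the remaining invariant chain fragment for peptide and H2-O restrains H2-DM. Ciita binds no DNA itself: it is recruited to a complex of RFX, CREB and NF-Y factors on the X and Y boxes of these promoters, and interferon gamma is the best known inducer of Ciita in macrophages.

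The members lie together, except for Ciita and Cd74. Ciita (chr16:10480059-10528418, GRCm38) is on chromosome 16. In the class II region of chromosome 17, H2-Oa, H2-DMa, H2-DMb2, H2-DMb1, H2-Ob, H2-Ab1, H2-Aa and H2-Eb1 followed each other in this order, from chr17:34092340-34095234 (H2-Oa) to chr17:34305867-34316674 (H2-Eb1). H2-Aa was on the minus strand and the others on the plus strand. These gene positions are from GENCODE. A RefSeq promoter sequence (GRCm38.p6) was matched for 7 members, and its start can differ from the GENCODE one: of the windows below, that of H2-Oa spans the GENCODE start, and those of H2-DMb1 and H2-DMb2 lie wholly after it, inside the gene. The Y box letters ATTGG, searched on both strands of the 250 bases before the RefSeq start, were found in 7 of 7, against 33.8% of 32851 promoters. In 6 of 7, H2-DMa being the exception, an AAC preceded ATTGG by 20 to 30 bases, an arrangement that 5.31% of all promoters held and that was looked for after these promoters had been read. The windows are shown because this arrangement recurred in 6 of the 7 members with a promoter sequence, with AAC and ATTGG in capitals and each sequence given on the strand of its gene.
H2-Aa (chr17:34287859-34287914, minus strand): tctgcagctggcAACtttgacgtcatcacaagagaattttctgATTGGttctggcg
H2-Eb1 (chr17:34305766-34305820, plus strand): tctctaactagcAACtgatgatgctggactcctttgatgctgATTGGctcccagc
H2-DMb1 (chr17:34153087-34153142, plus strand): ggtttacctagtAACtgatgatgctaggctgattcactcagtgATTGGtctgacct
H2-DMb2 (chr17:34145116-34145171, plus strand): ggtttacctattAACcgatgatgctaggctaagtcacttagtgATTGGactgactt
H2-Ob (chr17:34238808-34238860, plus strand): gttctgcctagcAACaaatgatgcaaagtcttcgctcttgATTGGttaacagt
H2-Oa (chr17:34092293-34092348, plus strand): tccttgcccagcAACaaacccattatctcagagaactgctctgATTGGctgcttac

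The spacing between the capitals was 28 bases in H2-Aa, H2-DMb1, H2-DMb2 and H2-Oa, 27 in H2-Eb1 and 25 in H2-Ob. The letters ACAGATG were present in 2 of 7 promoters, H2-Aa and H2-Oa, against 4.15% of all, and an interferon regulatory factor type motif, a pair of GAAA with any 2 bases between them, was found in 0 of 7 against 2.98%. These are matches of letters in a window and were not measured as binding.

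The libraries held 3279332 to 4958131 counts, and the members together took 0.688% to 2.16% of them. Depth differed with duration: the deepest LT-HFD library (3792898) was below the shallowest ST-HFD library (3860469). The 3 features with the most counts took 18.6% to 24.1% in the ST-HFD libraries, against 26.1% to 34.5% in those of LT-HFD. The labels were checked first on the targeted gene. On ST-HFD, Irf5 was at 203, 252, 248 and 248 CPM (counts scaled to library size with TMM factors) in WT replicates 1 to 4 and at 250.4, 253, 274 and 269.6 CPM in IRF5-KO. On LT-HFD, Irf5 was at 207, 183, 213 and 171 CPM in WT and at 207, 254, 251 and 206 CPM in IRF5-KO. Irf5 was thus no lower in the libraries labelled IRF5-KO (log2 fold change, or log2FC, of 0.13 with a standard error, SE, of 0.09 on ST-HFD, and of 0.24 with an SE of 0.12 on LT-HFD). Counts summed over a gene cannot show whether its floxed exons were lost. Lyz2, where Cre is inserted, did separate the labels. On ST-HFD its level was 3095 to 3783 CPM in WT and 1395 to 1973 CPM in IRF5-KO, and under LT-HFD 2968 to 4043 CPM against 1689 to 2062 CPM. For the durations, the labels of the libraries and a plot of Irf5 in the study order ST-HFD and LT-HFD in opposite ways, so every direction over time below rests on the labels. Genotypes are likewise those of the libraries as labelled.

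Class II transcripts were abundant in these F4/80+ cells. Per kilobase of exon, Cd74 was the highest member with a mean of 3086 CPM per kb over the 16 libraries, followed by H2-Ab1 (1087 CPM per kb), H2-Eb1 (872 CPM per kb) and H2-Aa (456 CPM per kb). The chains that load peptide lay far below, with H2-DMb1 at 68.4 and H2-DMa at 30.3 CPM per kb, and Ciita at 12.7 CPM per kb. H2-DMb2 (2.85 CPM per kb), H2-Ob (0.828 CPM per kb) and H2-Oa (0.389 CPM per kb) were the lowest. The order from Cd74 down to H2-DMb2 was the same in 16 of 16 libraries. H2-DMb2 exceeded H2-Ob in 15 and H2-Ob exceeded H2-Oa in 12, so the lowest neighbours were not separated beyond their spread. This order depends on the length used, all annotated exon bases of a gene (3798 for H2-Aa, 1944 for H2-Eb1). By read counts alone H2-Aa exceeded H2-Eb1 on LT-HFD, where the ratio of H2-Eb1 to H2-Aa was 0.787 to 0.903. H2-Oa, with 0 to 6 counts per library and 3 libraries at 0, did not pass the filter on low counts in any comparison, and 9 of 10 members were tested in each. H2-DMb1 and H2-DMb2 transcripts shared 179 windows of 100 identical bases (11.3% of those in H2-DMb1, 10.3% of those in H2-DMb2), so the small H2-DMb2 counts (2 to 42) are uncertain. On the opposite strand, H2-DMa overlaps Brd2 and 2 other gene models, Ciita overlaps Dexi, H2-Eb1 overlaps Gm20513 and H2-Oa overlaps BC051537. On the same strand, H2-DMa overlaps 1 further gene model and Cd74 overlaps Mir5107. Reads in these overlaps are uncertain, and the strand setting of the counting is not given in the sources used here. Of the other genes of the region, H2-Ea-ps, the E alpha gene that is defective in C57BL/6 mice, had 1 count in 1 of 16 libraries, and H2-Eb2 had 0 to 12 counts.

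**Figure D1:**
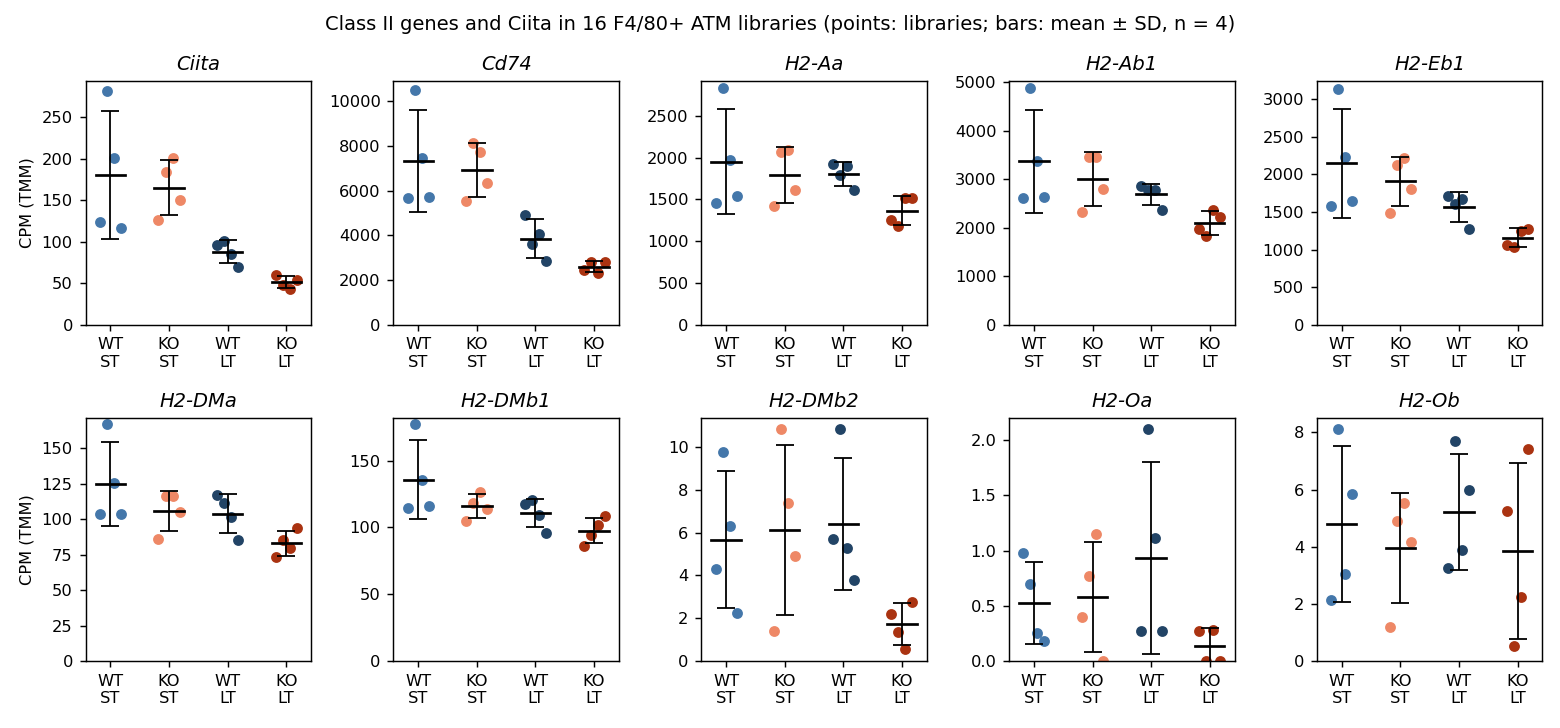
CPM (TMM-scaled, linear axes from 0) of the 10 members in each library, by genotype label and diet duration; points are libraries and bars the mean and SD of 4. Ciita and Cd74 were lower in every LT-HFD library than in any ST-HFD library, and WT ST-HFD replicate 2 held the highest value of 8 of the 10 genes shown.

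The effect of diet duration was tested over both genotypes, in the same LT-HFD libraries that prompted the list. The low IRF5-KO values on LT-HFD enter this contrast too, so its calls are not independent evidence about class II genes. Ciita and Cd74 fell most from ST-HFD to LT-HFD, H2-Eb1 and H2-Ab1 fell less, H2-DMa and H2-DMb1 fell slightly, and H2-Aa, H2-DMb2 and H2-Ob did not pass the test. Of the 9 tested members, 6 fell and 0 rose at an adjusted p under 0.05 (edgeR's quasi-likelihood test, Benjamini-Hochberg over 11560 genes), where 43.6% of all genes were called in either direction and 21.6% were called lower. The median log2FC was -0.42 over the 9 members and 0.04 over all tested genes. In a sorted population, fewer cells of a type and less RNA per cell cannot be told apart. The LT-HFD mice were also older than the ST-HFD mice when their cells were taken, and no chow-fed mice were compared. Time on the diet and age therefore cannot be separated in this contrast, and every fall or rise below is between groups that differ in both.

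Ciita, the transactivator, stood at 124, 281, 201 and 117 CPM in WT replicates 1 to 4 and at 127, 183, 200.3 and 150.2 CPM in IRF5-KO on ST-HFD. On LT-HFD it stood at 96.3, 101, 85.4 and 69.1 CPM in WT and at 59.4, 47.4, 43.5 and 53.8 CPM in IRF5-KO. Every LT-HFD library was below every ST-HFD library, a separation downwards that 8.97% of all tested genes showed. The log2FC was -1.36 (SE 0.17, edgeR adjusted p = 4.06e-06), or 0.388 of the ST-HFD level. Ciita fell within each genotype label as well, by 1.04 (SE 0.23, edgeR adjusted p = 0.00316) on the log2 scale in WT and by 1.69 (SE 0.24, edgeR adjusted p = 4.51e-05) in IRF5-KO.

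Cd74, the invariant chain, followed Ciita closely. Its ST-HFD levels were 5660, 10500, 7481 and 5696 CPM in WT and 5528, 8141, 7732 and 6339 CPM in IRF5-KO. Its LT-HFD levels were 4921, 3620, 4057 and 2836 CPM in WT and 2469, 2791, 2318 and 2800 CPM in IRF5-KO. The durations did not overlap for Cd74 either. The log2FC was -1.17 (SE 0.14, edgeR adjusted p = 4.28e-06), with -0.93 in WT and -1.42 in IRF5-KO.

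Among the classical chains, H2-Eb1, which pairs with an E alpha chain, was at 1580, 3139, 2237 and 1642 CPM in WT and at 1492, 2121, 2215 and 1801 CPM in IRF5-KO on ST-HFD. On LT-HFD H2-Eb1 was at 1708, 1613, 1677 and 1271 CPM in WT and at 1062, 1037, 1252 and 1279 CPM in IRF5-KO. The durations overlapped in WT and separated in IRF5-KO, where 15.2% of genes were lower without overlap, and the averaged log2FC was -0.59 (SE 0.14, edgeR adjusted p = 0.00189). H2-Ab1, the beta chain of the A molecule, ranged from 2617 to 4872 CPM (WT) and 2320 to 3461 CPM (IRF5-KO) on ST-HFD and from 2369 to 2855 CPM (WT) and 1829 to 2358 CPM (IRF5-KO) on LT-HFD. These ranges overlapped, and the log2FC was -0.42 (SE 0.13, edgeR adjusted p = 0.0132). H2-Aa, its partner alpha chain, was at 1455 to 2834 CPM in WT and 1419 to 2088 CPM in IRF5-KO on ST-HFD, with 1615 to 1923 CPM and 1183 to 1518 CPM after LT-HFD. H2-Aa did not pass the test, with a log2FC of -0.25 and a 95% interval of -0.53 to 0.02 (edgeR adjusted p = 0.127).

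The 2 chains of H2-DM moved by similar amounts. H2-DMa had a mean of 125 CPM in WT and 106 CPM in IRF5-KO on ST-HFD and of 104 and 83.0 CPM on LT-HFD, a log2FC of -0.31 (SE 0.11, edgeR adjusted p = 0.0279). H2-DMb1 had means of 136 and 116 CPM on ST-HFD and of 111 and 97.8 CPM on LT-HFD, a log2FC of -0.27 (SE 0.09, edgeR adjusted p = 0.0263). Both calls were fragile: leaving out WT LT-HFD replicate 4 and IRF5-KO LT-HFD replicate 1 gave adjusted p = 0.112 for H2-DMa and 0.105 for H2-DMb1 (edgeR), and the number of members called went from 6 to 4. Without 1 library at a time, H2-DMa lost its call in 5 of 16 fits (WT ST-HFD replicate 2, IRF5-KO ST-HFD replicates 2 and 3, WT LT-HFD replicate 4, IRF5-KO LT-HFD replicate 1), and H2-DMb1 in 4, the same libraries except IRF5-KO ST-HFD replicate 2. H2-DMb2 (log2FC -0.81, 95% interval -1.67 to 0.04) and H2-Ob (0.04, interval -0.83 to 0.90) had intervals too wide to place them with or apart from the others.

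**Figure D2:**
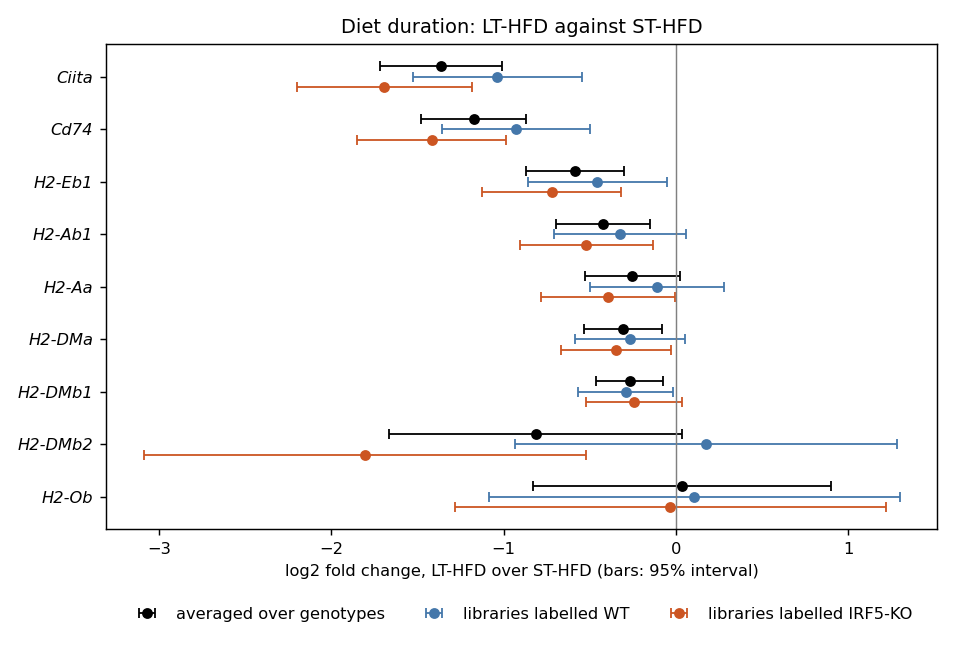
Log2FC of LT-HFD over ST-HFD for the 9 tested members, with 95% intervals, averaged over genotypes (black) and within each genotype label (blue WT, orange IRF5-KO). Ciita and Cd74 lie near -1.36 and -1.17 in the average, and the interval of H2-Aa reaches 0.02.

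Within the labels, 2 of 9 members were called lower in WT (Ciita and Cd74), where 13.2% of tested genes were called lower and 25.3% in either direction. In IRF5-KO 5 were called lower (Ciita, Cd74, H2-Eb1, H2-Ab1 and H2-DMb2), where 17.2% of genes were called lower and 32.8% in either direction. Each of these comparisons shares a group with the contrast behind the list, and no difference between the labels is read from these counts. Under library totals without TMM factors, 4 members were called in WT, H2-Eb1 and H2-DMb1 having joined. In IRF5-KO the count was 3 without ST-HFD replicate 2, ST-HFD replicate 3 or LT-HFD replicate 2, where H2-Ab1 and H2-DMb2 lost their calls. H2-Ab1 also lost its call without IRF5-KO LT-HFD replicate 1 or 4 (5 of 16 fits in all), and H2-DMb2 without LT-HFD replicate 3 (4 of 16).

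The unequal fall changed the proportions of class II transcripts inside a library, which do not depend on the scaling between libraries. The count ratio of Cd74 to H2-Aa lay between 3.68 and 3.95 in the 8 ST-HFD libraries and between 1.53 and 2.56 in the 8 LT-HFD libraries. Ciita to H2-Aa lay between 0.0753 and 0.102 on ST-HFD and between 0.0287 and 0.0565 on LT-HFD. Neither range overlapped the other duration, and within each duration the genotype labels overlapped in both ratios. H2-Eb1 to H2-Aa (1.03 to 1.13 against 0.787 to 0.903) and H2-Ab1 to H2-Aa (1.63 to 1.80 against 1.46 to 1.58) were also separated. By contrast, H2-DMb1 to H2-Aa (0.0572 to 0.0784 against 0.0575 to 0.0797) and H2-DMa to H2-DMb1 (0.819 to 0.983 against 0.782 to 0.995) overlapped between durations. The ratios were chosen with these data in view and are given with no test.

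**Figure D3:**
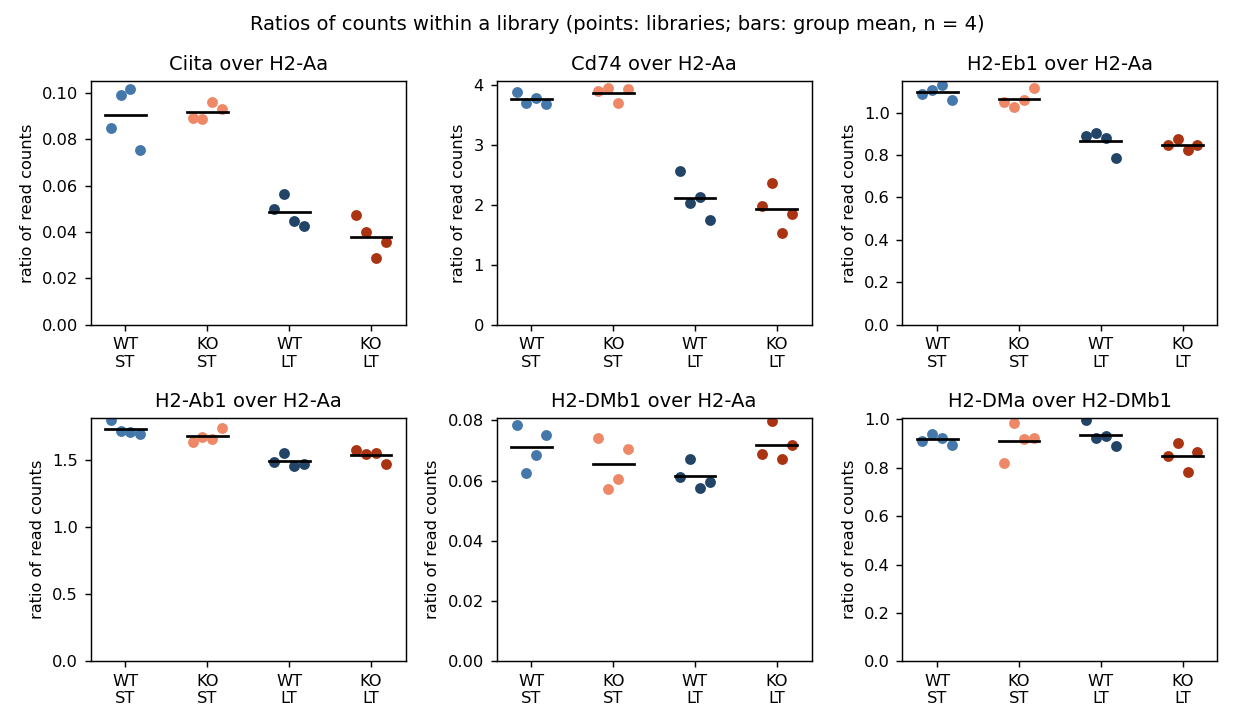
Ratio of read counts of pairs of members within each library (axes from 0), by genotype label and diet duration; points are libraries and bars group means. Cd74 to H2-Aa lies at 3.68 to 3.95 on ST-HFD and at 1.53 to 2.56 on LT-HFD, whereas H2-DMa to H2-DMb1 overlaps between durations.

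Genes that act around the members were examined from lists of their regulators and partners, whose counts stand against the 43.6% of all genes called for duration and the 21.6% called lower. Of 7 genes for the factors that bind the class II promoter, Rfx5, the large RFX subunit, fell (log2FC -0.45, SE 0.17, edgeR adjusted p = 0.0411), 0 rose and 6 were not called. Of 9 tested genes of the interferon gamma pathway, 2 fell, Jak1 (log2FC -0.36) and Jak2 (-0.46), the kinases of its receptor, and 2 rose, Ifngr1 (0.29), a receptor chain, and Socs1 (0.99), a feedback inhibitor. Of 9 genes for antigen processing and class II turnover, Cd83, which stabilises surface class II, fell (log2FC -0.46) and March8, a ubiquitin ligase, rose (0.37). Of 9 tested class I genes, Nlrc5, the class I counterpart of Ciita, fell (log2FC -0.49, edgeR adjusted p = 0.0468) and Psmb8, an immunoproteasome subunit, rose (0.33). Of 5 tested costimulation genes, Icosl fell (log2FC -0.86) and 0 rose. In the order given, the median log2FC over the tested genes of each list was -0.14, 0.02, 0.09, 0.04 and -0.21.

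Markers of cell types moved with duration too, in a contrast where 43.6% of all genes were called and 21.6% were called lower. The resident macrophage markers fell in 4 of 5 cases, Lyve1 (log2FC -2.12), Cd163 (-1.40), Timd4 (-1.39) and Mrc1 (-0.37), and their summed level went from 3269 to 5514 CPM over the ST-HFD libraries to 1775 to 4316 CPM over the LT-HFD libraries. Of the 7 fibroblast and adipocyte markers, 4 rose, all of them fibroblast genes: Dcn by 3.46 and Pdgfra by 3.33 on the log2 scale, with Col3a1 (1.74) and Col1a1 (1.07). The adipocyte genes Adipoq (-0.17), Plin1 (-0.08) and Lep (-0.61) were not called. The summed level of the 7 went from 558 to 1330 CPM to 2323 to 6836 CPM. Of the macrophage markers, Adgre1, which encodes F4/80, rose (log2FC 0.33), and Csf1r (-0.75), Cd68 (-0.41) and Mertk (-0.33) fell. Among the dendritic cell markers Cd209a (-0.80) and Kmo (-0.58) fell and Dpp4 (1.33) and Clec10a (0.30) rose, with 3 of 10 not tested for low counts. Of the plasmacytoid dendritic cell markers Siglech (-2.01) and Tcf4 (-0.45) fell, of the monocyte markers Ccr2 (-0.58) fell and Plac8 (1.49) and Chil3 (1.86) rose, and of the B cell markers 0 of 2 tested genes were called. The 6 T and NK cell markers summed to 0.802 to 7.20 CPM per library, and none was tested. The part of these shifts in the class II result was not tested. Without the LT-HFD libraries with most Dcn in each genotype label (WT replicate 4, 2900 CPM, and IRF5-KO replicate 1, 1594 CPM), the log2FC was -1.35 for Ciita and -1.09 for Cd74, and the other LT-HFD libraries held at least 607 CPM of Dcn, against at most 200.3 CPM on ST-HFD.

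Between genotypes on ST-HFD no member was called. By edgeR's test 0 of the 9 tested members passed after adjustment, where 1 of 10958 genes (0.00913%) did, and 0 members were under 0.05 before adjustment, where 1.84% of genes were. DESeq2's Wald test called 0 members, and so did the fit with same-numbered libraries as pairs, which called 2 genes. Log2FC values ran from -0.30 (H2-Ob) to 0.11 (H2-DMb2), with 8 of 9 below 0 against 49.3% of all genes. For Ciita the estimate was -0.13 with a 95% interval of -0.69 to 0.43, and for Cd74 it was -0.09 with -0.54 to 0.37, so a moderate change either way was not detectable at this spread. The signs depended on 1 library: without WT ST-HFD replicate 2, the estimate was 0.15 for Ciita, 0.13 for Cd74, 0.10 for H2-Aa, 0.050 for H2-Ab1 and 0.050 for H2-Eb1.

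On LT-HFD the levels of 9 of 9 tested members were lower in the libraries labelled IRF5-KO, as were those of 49.9% of all genes. This contrast was in view when the list was written, so its values are a description and not a test of class II genes. Ciita averaged 87.9 ± 14.2 CPM in WT and 51.0 ± 7.002 CPM in IRF5-KO (SD, n = 4), a log2FC of -0.79 (SE 0.15). Cd74 averaged 3859 ± 870.0 CPM and 2594 ± 240.3 CPM (SD, n = 4), a log2FC of -0.58 (SE 0.17). The 4 IRF5-KO libraries of either gene lay below the 4 WT libraries. The classical chains differed by less, with log2FC values of -0.44 for H2-Eb1, -0.41 for H2-Aa and -0.37 for H2-Ab1. H2-DMa (-0.33) and H2-DMb1 (-0.19) differed least. H2-DMb2 had the largest estimate, -1.87 (SE 0.48), on 14 to 31 counts per WT library and 2 to 9 per IRF5-KO library, and H2-Ob the least certain, -0.44 (SE 0.57).

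By count, 5 of 9 members did not overlap between genotypes on LT-HFD, where 1.67% of all genes were lower without overlap. The adjusted threshold of 0.05 was passed by 0 of 9 in edgeR, where 2 of 10987 genes (0.0182%) were called, and by Ciita alone in DESeq2's Wald test. Before adjustment 7 of 9 were under 0.05, against 3.5% of genes that were lower at that level. Nothing is read from these counts, since the same contrast guided the choice of genes.

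**Figure D4:**
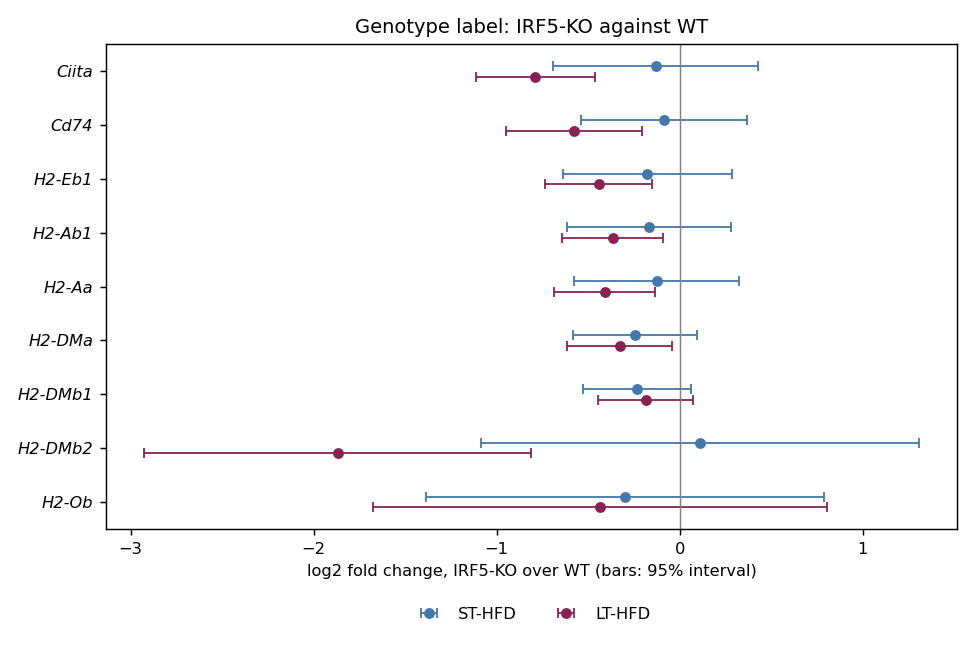
Log2FC of IRF5-KO over WT labels for the 9 tested members, with 95% intervals, on ST-HFD (blue) and LT-HFD (purple). On ST-HFD every interval includes 0, and on LT-HFD Ciita lies at -0.79 and H2-DMb2 at -1.87 with a wide interval.

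The lower class II levels were accompanied by other differences on LT-HFD. The 5 resident macrophage markers were all lower in IRF5-KO, at log2FC values of -0.94 (Timd4), -0.90 (Cd163), -0.70 (Lyve1), -0.50 (Folr2) and -0.45 (Mrc1), and their sums were 2641 to 4316 CPM in WT and 1775 to 3015 CPM in IRF5-KO. Of the dendritic cell markers, 6 of 6 tested were below 0, among them Cd209a (-1.24) and Clec10a (-0.44). Among partners of the members, Icosl (-0.80), Cd40 (-0.60), March1 (-0.35) and Irf1 (-0.33) were lower, and Ctsd (0.57) was higher. The class I genes were below 0 in 9 of 9 tested cases with a median of -0.24, among them H2-K1 (-0.28) and Psmb8 (-0.25), and of the monocyte markers Ccr2 was at -0.55, Plac8 at -0.067 and Chil3 at 0.77. Except for Lyz2 (edgeR adjusted p = 0.0484), 0 genes of these lists were called on LT-HFD. The 7 promoter factor genes had a median of -0.02. The part of the marker differences in the class II values was not tested.

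Whether the genotype difference changed with duration was asked by the interaction. Of the 9 members 0 were called in edgeR, as were 0% of 11560 genes, 3.93% of which were under 0.05 before adjustment, and DESeq2 called 0 members. For Ciita the estimate was -0.66 with a 95% interval of -1.35 to 0.04 (edgeR adjusted p = 0.969). For Cd74 it was -0.49 with an interval of -1.09 to 0.11. H2-DMb2 (estimate -1.98) was the 1 member under 0.05 before adjustment. The difference between the LT-HFD and ST-HFD values was therefore not shown.

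The members also varied together among libraries of the same group. After each gene was centred on its group means, the mean log2 CPM of H2-Aa, H2-Ab1, H2-Eb1 and Cd74 deviated most in WT ST-HFD replicate 2 (0.58) and in WT ST-HFD replicate 1 (-0.35). The closest pair was H2-Aa and H2-Ab1, the chains of 1 molecule, with Pearson's r of 0.99 over 16 libraries. H2-DMa and H2-DMb1 had r of 0.95. Ciita, which was not part of that mean, had r of 0.89 with it (Spearman's coefficient 0.81), and 0.79 without the 2 farthest libraries. H2-DMb2 (0.69) and H2-Ob (0.43) tracked it less, both with few counts. These correlations are descriptions, since the points share library, depth and group and H2-Aa, H2-Ab1, H2-Eb1 and Cd74 are part of the mean itself.

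**Figure D5:**
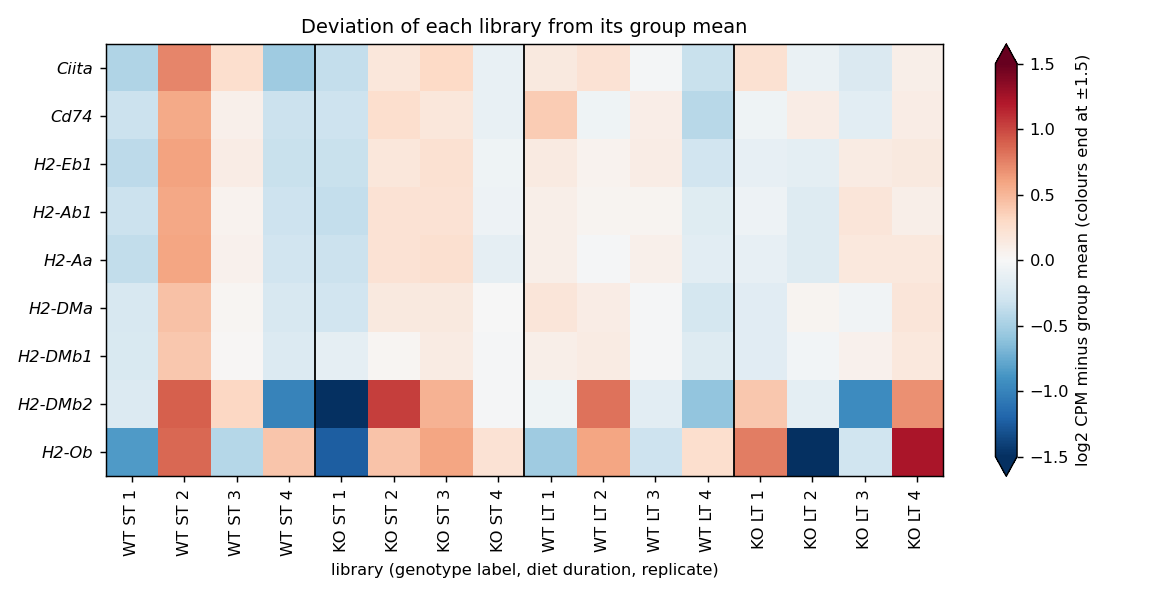
Deviation of each library from its group mean (log2 CPM, colours end at ±1.5) for the 9 tested members in 16 libraries, with lines between groups. WT ST-HFD replicate 2 is high for all 9 genes, and H2-DMb2 and H2-Ob, the genes with few counts, scatter most.

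Of 11551 other genes, those most alike to the mean of H2-Aa, H2-Ab1, H2-Eb1 and Cd74 over the 16 libraries were Fgd2 (r = 0.90), Prex1 (r = 0.89), Wdr3 (r = 0.87), Bbc3 (r = 0.87) and Rogdi (r = 0.86). Of the listed genes, Jak2 (r = 0.78), Csf1r (r = 0.76), March1 (r = 0.76), Icosl (r = 0.76) and Nlrc5 (r = 0.75) followed the mean. The lysosomal proteases ran against it, with r of -0.80 for Ctsl, -0.78 for Ctsd and -0.72 for Ctsb. The 7 promoter factor genes ran from r of -0.30 (Nfya) and -0.28 (Rfxap) to 0.43 (Rfx5) and 0.45 (Nfyb), and Irf1 had r of 0.10. The resident macrophage markers had r between 0.42 (Folr2) and 0.56 (Mrc1). Without the 2 farthest libraries, WT ST-HFD replicates 1 and 2, r was 0.60 for Jak2, 0.55 for Nlrc5, 0.29 for Rfx5 and 0.18 for Nfyb. For the proteases r weakened to -0.66 (Ctsl), -0.63 (Ctsd) and -0.57 (Ctsb). The share of all genes with r of such size was not counted.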

How the data were processed

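Total RNA of F4/80+ ATMs was sequenced with a stranded kit after depletion of rRNA. The authors aligned reads to mm10 with STAR 2.7.3a and deposited raw counts per gene, without normalization. The submitters' processing notes also name fastp 0.19.11 and the build mm9. The strand setting and annotation release of the counting are not given in the sources used here. All columns were mapped by their titles. The depth of 3279332 to 4958131 counts limits H2-Oa, H2-Ob and H2-DMb2. Of 37310 identifiers, 32620 matched GENCODE M21 (GRCm38, the assembly of mm10), from which coordinates and exon lengths were taken.

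Low counts were removed with filterByExpr, TMM factors were applied, and the quasi-likelihood test of edgeR 4.0.16 (limma 3.58.1, R 4.3.3) was run with Benjamini-Hochberg adjustment over all genes tested. Genotypes were fitted per duration, and duration and the interaction over all 16 libraries. Nothing in the labels says that replicates came from separate mice, so p-values measure the spread between these samples. The study's legend for this sequencing gives n = 4 per genotype, and its methods refer to the legends for numbers of mice. No 2 libraries of a group were duplicates (chi-square per degree of freedom at least 4.00). On simulated data, for the averaged duration contrast with 11396 genes, 86.7% of 98 genes with a log2 change of 1 and 100% of 102 with a change of 2 were called, and 6.5% of 200 calls were false. For a log2 change of 1, the genotype contrast called 68.5% of 111 genes on ST-HFD (10769 simulated) and 62.5% of 104 on LT-HFD (10849 simulated). These simulations gave 177 and 170 calls, whereas 1 and 2 genes were called in the real genotype contrasts. The adjusted threshold was therefore stricter in the real data, and the simulated genotype shares do not carry over to it.

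The members and all lists were chosen with earlier results of these data known. Named were all members, Irf5, Lyz2, Adgre1 and the 5 genes most alike. Calls of listed genes within a genotype label are not given. For the averaged duration and LT-HFD genotype comparisons, listed genes with an adjusted p under 0.05 were named (at most 4 per list), or otherwise up to 2 with the smallest p. Listed genes named beyond that were chosen after their values were seen. 3 listed genes (Gbp5, Psmb9, H2-Ab2-ps) were not matched. Deviations of same-numbered ST-HFD libraries of the 2 genotype labels correlated at 0.37, 0.48, 0.18 and 0.30. The highest value between differently numbered ones was 0.47, so the numbers are not shown to be pairs. They were taken as pairs only in an alternative fit. Alternatives were DESeq2 1.42.0, RLE factors, library totals, no filter, all 16 libraries, a replicate block and leaving out libraries.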

Additional observations from a re-analysis of the deposited data

Results flagged for a closer look

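Irf5 in the library labelled WT ST-HFD replicate 1 was at 203 CPM, where the nearest of the other WT ST-HFD libraries was at 248 CPM. Its gap to that library was 0.914 of the range of the group, above Dixon's 95% critical value for 4 libraries. It was the 1 value singled out in 44 checks of a gene in a group, and chance alone singles out about 1 in 20 such groups.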

How the results depend on the processing

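Alternatives changed few calls of the members. The averaged duration effect kept 6 calls under DESeq2, RLE factors, library totals, no filter and a replicate block, and the calls for Ciita, Cd74, H2-Eb1 and H2-Ab1 stayed in each of the 16 fits without 1 library. DESeq2 called 1 member between genotypes on LT-HFD, Ciita, and library totals called 4 members for duration in WT. Without 1 library, the number of members called for duration in IRF5-KO ran from 3 to 7. Without WT and IRF5-KO ST-HFD replicates 2 together, an alternative chosen after seeing the data, the ST-HFD genotype estimate (log2 fold change) changed sign to 0.10 for Ciita, 0.027 for H2-Aa and 0.044 for Cd74. The averaged duration estimate of H2-Ob changed sign to -0.020 under library totals and to -0.10 without the 2 LT-HFD libraries with most Dcn, also chosen after seeing the data.

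With 1 library left out, the sign of these uncalled estimates also turned, and the cause was not tested. On ST-HFD the genotype estimate ran from -0.29 to 0.15 for Ciita, -0.24 to 0.10 for H2-Aa, -0.27 to 0.050 for H2-Ab1, -0.29 to 0.050 for H2-Eb1, -0.19 to 0.13 for Cd74, -0.31 to 0.50 for H2-DMb2 and -0.54 to 0.055 for H2-Ob. The duration estimate of H2-Ob ran from -0.22 to 0.22 averaged, -0.14 to 0.47 in WT and -0.54 to 0.33 in IRF5-KO. In WT it ran from -0.22 to 0.12 for H2-Aa and -0.18 to 0.57 for H2-DMb2. The interaction ran from -0.11 to 0.11 for H2-DMb1 and -0.65 to 0.23 for H2-Ob.

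With the replicate block, H2-Ob in IRF5-KO changed sign to 0.025, and the number of members called changed in none of the 6 comparisons. The block took the genes called between genotypes from 1 to 2 on ST-HFD, as did DESeq2, no filter and a fit of all 16 libraries, and from 2 to 0 on LT-HFD, where same-numbered libraries correlated at -0.15 to 0.23 and share only a number, as they do across durations. Genes called between genotypes on LT-HFD numbered 6 under DESeq2 and without the filter, and 1 under library totals. Without 1 library the number ran from 0 to 2 and stayed at 2 in 1 of 8 fits, so the Lyz2 call is fragile too. Depth limited H2-Oa, H2-Ob and H2-DMb2, with at most 42 counts per library.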
